A study of Mus musculus with 2 samples.

Results

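Neutrophils of the mouse spleen that lay between the immature and the mature end of granule gene expression were selected by their own transcript counts. Of 20060 cells that passed quality filters (9424 from a wild-type and 10636 from an SCD spleen), 999 were members: 99 in the wild-type and 900 in the SCD library. A member held at least 1% of its unique molecular identifiers (UMIs, single captured transcripts) in S100a8 and S100a9, from 1 to under 5% in the specific granule genes Camp, Ngp and Ltf, at most 4 UMIs in 8 mitotic genes (Top2a, Mki67, Ube2c, Birc5, Cenpf, Nusap1, Prc1, Spc25) and under 0.5% in the azurophil genes Elane, Mpo, Prtn3 and Ctsg. These measured values chose the cells, so the levels of these genes below are a description. Cells that passed the same gates with 5% or more of Camp, Ngp and Ltf are called the immature side (397 wild-type and 2777 SCD cells), and those under 1% the mature side (4018 and 2974 cells).

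The cells came from single-cell RNA sequencing of spleen suspensions depleted of unwanted cells with a bead kit for dendritic cell (DC) enrichment, so neutrophils were not the target of the enrichment. The control mouse, called wild-type by the study, was homozygous for the Hba tm1Paz deletion, heterozygous for Hbb tm1Tow and hemizygous for the human globin transgene Tg(HBA-HBBs)41Paz, and did not sickle. The SCD mouse, a model of sickle cell disease, was homozygous for Hba tm1Paz, for Hbb tm1Tow and for the same transgene. Both were untreated and 12 to 16 weeks old, and each library was 1 mouse. By these genotypes the Hba deletion and the transgene were shared and the mice differed in Hbb dose and transgene dose. The paper describes this strain as of mixed genetic background, so the mice may differ at other loci as well. With 1 sample a group there is no test over animals, and every 95% interval below covers counting error only.

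Neutrophils mature from dividing promyelocytes through myelocytes and band cells, and their granules are filled in that order: azurophil granules with serine proteases and myeloperoxidase first, then specific granules with lactoferrin and cathelicidin, then gelatinase granules with matrix metalloproteinases, and last the secretory vesicles and surface receptors. Each wave of transcripts is switched off as the next begins, so a cell that has lost most but not all specific granule mRNA lies near the myelocyte to band transition. In mice the spleen holds both a pool of mature neutrophils and, under stress hematopoiesis, granulocyte precursors.

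The deposited libraries held 10845 wild-type and 13447 SCD cells with 97880318 and 189688217 UMIs. Members had a median of 7206 UMIs and 1591 genes per cell in the wild-type 6650.5 UMIs and 1546 genes in the SCD library, close to each other, whereas the mature side was shallower (medians of 2406 and 3456 UMIs) and the immature side deeper (10534 and 9646). The libraries shared 88 cell barcodes, of which 5 belonged to a member of either library and 0 to a member of both. All members together held 830885 wild-type and 6756843 SCD UMIs, so a count of 3 UMIs, the limit that a count of 0 allows, equalled 3.61 and 0.444 CPM (UMIs scaled to a total of 1000000), and the SCD levels are the more precise.

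The 5 marker genes named for this stage were present in nearly every member. At the depth of each cell, Mmp8, which encodes neutrophil collagenase, had a UMI in 100% of wild-type and 99.7% of SCD members. After thinning each cell to 1000 UMIs these shares were 99.0% and 96.2% (94.7 to 97.4 in the SCD library), against 0.403% and 1.90% of background cells, which were plasmacytoid DCs (at least 2 Siglech UMIs and under 1% S100a8 and S100a9) with a higher median depth of 11080 and 9108 UMIs. Retnlg, a resistin-like secreted protein of late neutrophils, had a UMI in 98.0% and 98.7% of thinned members, against 2.15% and 13.5% of these DCs. Ifitm6, a member of the interferon-induced transmembrane family, was seen in 80.8% (71.7 to 88.0) and 90.3% (88.2 to 92.2). Ly6g, the surface protein by which mouse neutrophils are sorted, was seen in 47.5% (37.3 to 57.8) and 51.3% (48.0 to 54.7), and Ltf, lactoferrin, in 84.8% (76.2 to 91.3) and 83.9% (81.3 to 86.2). Fcnb, a ficolin of earlier myelocytes, had 0 UMIs in the wild-type and 36 in the SCD members. All 5 markers were thus found in the members of both libraries, with Ltf partly set by the gate.

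Granule transcripts in cells that should lack them, taken here as a measure of free RNA in the suspension, were more abundant in the SCD library. In the same DCs, Camp was at 31.6 CPM (27.9 to 35.6) in wild-type and 299 CPM (285 to 314) in SCD cells, and Ngp at 27.6 and 234 CPM. The azurophil genes of members were at about that background in the SCD library: Prtn3 was at 43.8 CPM in members and 40.8 in the DCs, Mpo at 30.9 and 26.2 and Elane at 19.8 and 18.3, and Ctsg was at 7.84 CPM in members. In the wild-type members these 4 genes had 1, 2, 0 and 0 UMIs, and in the wild-type DCs they were at 1.89, 1.66, 0.947 and 0.592 CPM. Their levels are not read as expression by members, and the part of free RNA in them was not tested.

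Some members carried transcripts of other cell types. Scrublet called 19 of 99 wild-type members (19.2%, 12.0 to 28.3) and 48 of 900 SCD members (5.33%, 3.96 to 7.01) doublets, against 3.75% and 1.86% of all kept cells. Markers of conventional DCs, plasmacytoid DCs, B cells, erythroid cells and progenitors, 37 genes in all, took up at least 0.1% of UMIs in 17 wild-type and 51 SCD members, of which 14 and 16 were also called doublets. The 22 wild-type and 83 SCD members that met either condition had medians of 16180 and 14664 UMIs, and the 77 and 817 others 6639 and 6512. The 10 conventional DC markers were at 4401 CPM (4260 to 4546) in wild-type and 946 CPM (923 to 969) in SCD members, with 69.7% and 47.7% of those UMIs in 5 cells each. The 6 plasmacytoid DC markers were at 372 and 210 CPM, the 8 erythroid markers at 172 and 71.2 CPM, and the 10 monocyte markers at 1727 and 1657 CPM. Most of the monocyte level was Ly6c2, at 1171 and 1275 CPM, with 3 or more UMIs in 91.9% and 90.4% of members. Ly6c2 therefore describes the members themselves more than other cells. Other monocyte markers lay in fewer cells. For example, Ccr2 and Ms4a6c had a UMI in 6 and 17 of 99 wild-type and in 94 and 92 of 900 SCD members. Ccr2 had 3 or more UMIs in 4 and 44 members. The 8 B cell markers were higher in SCD members, at 4.81 CPM (1.31 to 12.3) in wild-type and 56.4 CPM (50.9 to 62.3) in SCD members. In the SCD library 78.2% of those UMIs lay in 5 cells. B cell markers Ms4a1 and Pax5 were at 0 UMIs in wild-type members, as were the 5 platelet markers, and the eosinophil genes Prg2, Epx and Prg3 were at 0 in both. The flanks carried such transcripts too. Conventional DC markers were at 538 and 255 CPM on the immature side and at 4888 and 1425 CPM on the mature side. Erythroid markers were at 59.8 and 146 CPM on the mature side, higher in the SCD library. Their part in comparisons with the flanks was not tested. Values without these 22 and 83 cells, a choice made after the data were seen, are given below where the text says so, and all other levels are over all members.

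Members made up a far larger part of the SCD suspension. They were 1.05% (0.855 to 1.28) of the kept wild-type cells and 8.46% (7.94 to 9.01) of the kept SCD cells, a ratio of 8.05 (6.54 to 10.0). Among gated neutrophils alone, 2.19% (1.79 to 2.66) of 4514 wild-type and 13.5% (12.7 to 14.4) of 6651 SCD cells were members, a ratio of 6.17 (5.01 to 7.67). The immature side took 8.79% and 41.8% of gated neutrophils, a ratio of 4.75 (4.27 to 5.29), and the mature side 89.0% and 44.7%, a ratio of 0.502 (0.479 to 0.527). The interval of the members' ratio lies above 1 and overlaps that of the immature side. Without called doublets the members' ratio was 9.26 over kept cells. Requiring at least 1000 genes per cell, which left out much of the shallow wild-type mature side, lowered the ratio over gated neutrophils to 3.96.

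**Figure D1:**
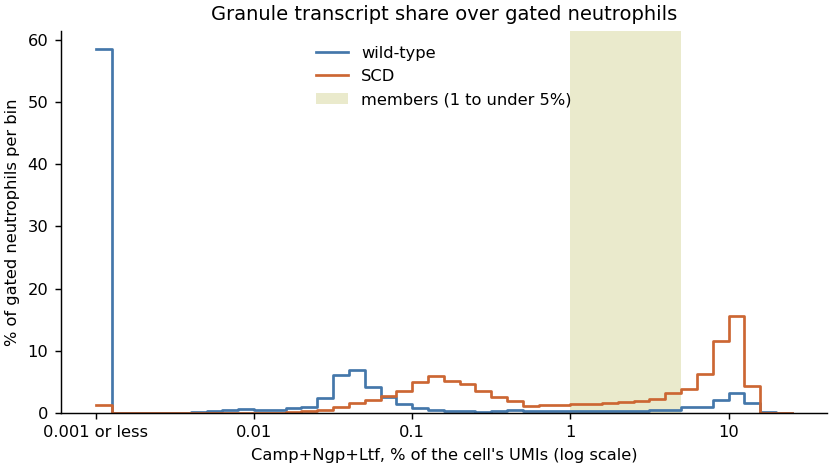
Share of each gated neutrophil's UMIs in Camp, Ngp and Ltf (x axis, log scale) against the percent of gated neutrophils of the library in each bin (y axis), for the wild-type (blue) and SCD (orange) library, with the members' range shaded. The members lie in a sparse stretch between the immature peak near 10% and the mature cells, and hold 2.19% of wild-type and 13.5% of SCD gated neutrophils.

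The range from 1 to 5% was thinly filled in both libraries. In steps of 1%, it held 39, 23, 21 and 16 wild-type and 301, 217, 187 and 195 SCD members from the mature to the immature end. Just outside the lower edge, 38 SCD cells at 0.9 to under 1% had Ltf at 925 CPM and Retnlg at 43603 CPM, and just inside it 43 cells at 1 to under 1.1% had 869 and 39219 CPM. At the upper edge, 85 SCD members at 4.5 to under 5% had Ltf at 8701 CPM and Mmp8 at 4250 CPM, against 9025 and 3971 CPM in 108 cells at 5 to under 5.5%. In the wild-type library the 9 and 17 cells around the upper edge had Ltf at 10107 and 10779 CPM. Levels on either side of an edge were thus close in the SCD library. At the lower edge of the wild-type library 6 cells outside had Ltf at 1256 CPM and 3 inside at 599.7 CPM, too few to compare.

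The promoters of 3 of the marker genes are shown because their transcripts separate over this range, with Ltf lower, Mmp8 level and Retnlg higher towards the mature side. The bases are the 250 before the transcription start in RefSeq (build GRCm38.p6), 5′ to 3′ on the gene's strand, each on the + strand: chr9:111019042-111019291 for Ltf, chr9:7558179-7558428 for Mmp8 and chr16:48872358-48872607 for Retnlg. Capitals mark matches on either strand to TTNNGNAA, the letters of a C/EBP site, and to GAGGAA, the core letters of a PU.1 site, for the transcription factor families that drive granulocyte genes.
Ltf: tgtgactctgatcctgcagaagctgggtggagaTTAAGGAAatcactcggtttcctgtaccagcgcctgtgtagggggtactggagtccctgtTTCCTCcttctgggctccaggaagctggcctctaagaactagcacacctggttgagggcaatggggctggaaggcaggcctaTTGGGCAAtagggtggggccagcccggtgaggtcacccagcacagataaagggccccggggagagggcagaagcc
Mmp8: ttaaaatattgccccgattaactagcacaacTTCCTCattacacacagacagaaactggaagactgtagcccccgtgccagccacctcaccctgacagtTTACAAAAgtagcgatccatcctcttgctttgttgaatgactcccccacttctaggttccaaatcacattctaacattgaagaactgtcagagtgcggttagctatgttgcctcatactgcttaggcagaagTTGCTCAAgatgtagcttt
Retnlg: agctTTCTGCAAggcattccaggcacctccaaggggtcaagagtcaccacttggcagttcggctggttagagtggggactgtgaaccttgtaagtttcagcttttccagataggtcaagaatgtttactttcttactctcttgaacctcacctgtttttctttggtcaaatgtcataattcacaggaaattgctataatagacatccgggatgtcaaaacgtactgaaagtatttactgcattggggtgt
Ltf and Mmp8 each held 2 matches to the C/EBP letters and 1 to the PU.1 letters, and Retnlg held 1 C/EBP match. Among other windows scanned, those of Ngp and Chil3 held 3 C/EBP matches each, and those of Camp, Nt5e, Cd55 and Ifrd1 held 0 matches to either. For Camp and Ngp the GENCODE annotation has a start upstream of the RefSeq start, so their windows are less certain. Of 32851 promoter windows of the same length, 36.8% held at least 1 C/EBP match and 23.3% a PU.1 match, so a match is common and is given as a description of the letters only.

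Along the Camp, Ngp and Ltf share, the marker genes took different courses that were close to each other in the libraries. From the immature to the mature end of the members, in steps of 1%, Ltf was at 9400, 6204, 4151 and 1540 CPM in the wild-type and 7918, 5947, 3808 and 1423 CPM in the SCD library, a course that the gate sets. Retnlg was at 17452, 25882, 28420 and 41568 CPM in the wild-type and 21528, 25231, 32210 and 40683 CPM in the SCD members, so it was higher at every step towards the mature end in both. It was higher still in the next cells outside, at 45216 and 46688 CPM in the 66 and 567 cells with 0.3 to under 1%, and lower beyond. Mmp8 stayed level, from 3543 to 4191 CPM in the wild-type and from 4130 to 4241 CPM in the SCD steps. Ly6g also stayed level among members, from 562 to 618 and from 780 to 837 CPM, and was lower in the wild-type at each step. Ifitm6 was lowest at the mature end, at 2114 and 2391 CPM, and highest at the immature end, at 2790 and 3277 CPM.

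**Figure D2:**
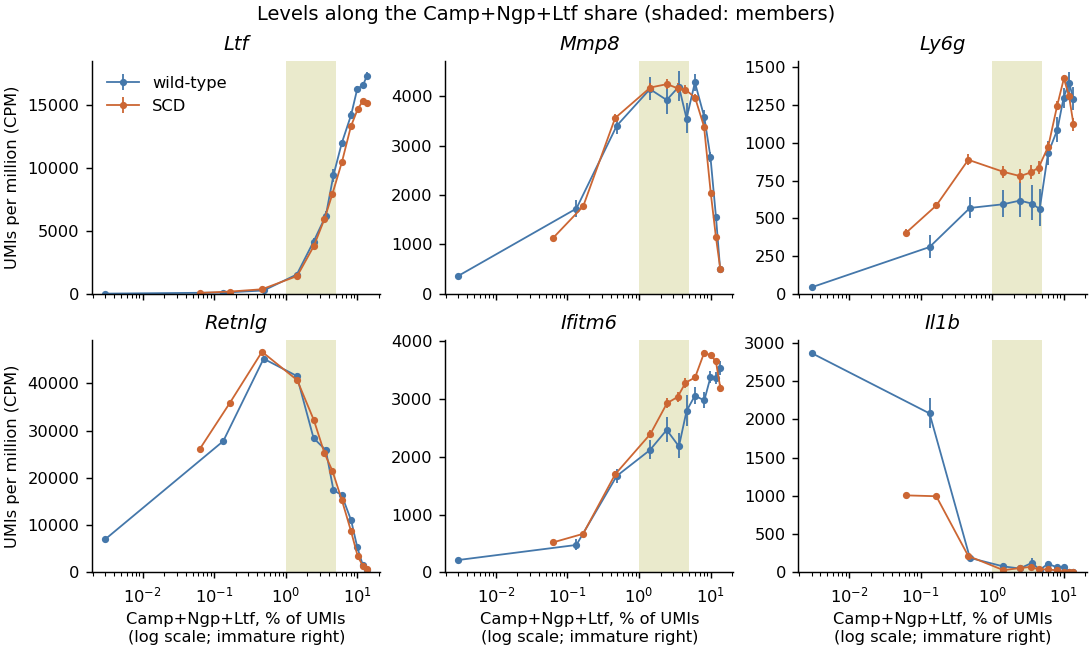
Level in CPM (y axis) of the 5 markers and Il1b in bins of gated neutrophils ordered by the share of UMIs in Camp, Ngp and Ltf (x axis, log scale, immature cells on the right), for the wild-type (blue) and SCD (orange) library; bars are 95% counting intervals, shading marks the members and a bin with a median of 0 is drawn at 0.003%. The libraries run close together within the members and part on the far mature side, where Retnlg is at 7020 CPM in wild-type and 26116 CPM in the SCD cells under 0.1%.

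The libraries were further apart on the mature side than in members for Retnlg, Mmp8, Ly6g and Il1b. This did not hold for every gene: Ifitm1 was at 1209 and 1197 CPM on the mature side and at 77.0 and 97.4 CPM in members. The members fill a fixed range, but the mature side has no lower limit and its cells were unlike in the libraries. Their median share of Camp, Ngp and Ltf was 0% in the wild-type and 0.152% in the SCD library. For S100a8 and S100a9 it was 14.1% and 30.4%. The part of this in the differences on the mature side was not tested. On the mature side Retnlg was at 8736 CPM in wild-type and 35594 CPM in SCD cells, Mmp8 at 497 and 2002 CPM, Ly6g at 66.9 and 604 CPM, and Il1b, the precursor of interleukin-1 beta, at 2757 and 815 CPM. In members Retnlg was at 30664 CPM (30288 to 31043) in wild-type and 30518 CPM (30386 to 30650) in SCD cells, which gives a ratio of 0.995 (0.982 to 1.01). Mmp8 was at 3991 CPM (3856 to 4129) and 4174 CPM (4126 to 4223), a ratio of 1.05 (1.01 to 1.08). Ltf was at 4605 and 4595 CPM, with a ratio of 0.998 that the gate holds near 1. Ifitm6 was at 2332 and 2877 CPM, a ratio of 1.23 (1.18 to 1.29), and Ly6g at 595 and 808 CPM, a ratio of 1.36 (1.24 to 1.49), so both were somewhat higher in SCD members. Without the doublets and cells with other markers, the log2 ratios of Retnlg, Mmp8, Ifitm6 and Ly6g were -0.22, -0.10, 0.28 and 0.35.

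Of 16 listed genes of the specific granules, Camp, Ngp and Ltf were used by the gate. For the other 13, the median log2 ratio of members over the immature side was -0.35 in the wild-type and -0.34 in the SCD library, against 0.29 and 0.24 for all expressed genes. Over the mature side it was 2.55 and 1.29 (12 genes expressed), against -0.39 and -0.14. Lcn2, the iron-siderophore carrier lipocalin 2, went from 18048 CPM on the immature side to 9126 in members and 1067 on the mature side of the wild-type library, and from 16975 to 8834 and 3192 CPM in the SCD library. Chil3, a chitinase-like protein, was already far lower in members, at 567 against 5416 CPM in the wild-type and 697 against 4575 CPM in the SCD library. Cd177, a surface partner of proteinase 3, was at 1104 and 1261 CPM in members, near its level on the immature side (1411 and 1449 CPM) and well above the mature side (89.9 and 467 CPM). Anxa1, annexin A1, was at 1970 and 2371 CPM in members, between 4026 and 4272 CPM on the immature side and 798 and 1057 CPM on the mature side. Hp, haptoglobin, was an exception: it was at 1062 and 1163 CPM in members, near the immature side (1168 and 1170 CPM) and below the mature side (1569 and 1584 CPM).

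The summed level of the gelatinase granule genes was highest in members. All 6 listed genes were expressed, and their summed level was 2465 CPM on the immature side, 4228 in members and 2831 on the mature side of the wild-type library, and 2388, 4302 and 3517 CPM in the SCD library. Mmp9, gelatinase B, made up most of this, with 3325 and 3528 CPM in members. Gene by gene the members were close to the mature side. The median log2 ratio of members over it was 0.18 in the wild-type and -0.06 in the SCD library, against -0.39 and -0.14 for all expressed genes. Mmp25, a membrane-anchored metalloproteinase, was at 335 and 333 CPM in members, against 233 and 206 CPM on the immature and 55.6 and 179 CPM on the mature side. Slc11a1, a metal ion transporter of phagosomes, did not share this course: it was at 22.2, 71.0 and 165 CPM from the immature to the mature side of the wild-type and at 16.3, 55.5 and 95.7 CPM in the SCD library.

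To find genes that were highest between the flanks, genes were chosen in the wild-type library alone and then read in the SCD library. Of 2112 genes expressed in wild-type members, 47 (2.23%) were at least 1.5-fold above both flanks. Of these 47, 8 were again at least 1.5-fold above both flanks in the SCD library. There, 11 of 1905 expressed genes (0.577%) met the same rule on their own. Of the 8, 4933408B17Rik is not among those 11, as it was at 27.4 CPM in SCD members, under the minimum of 50 CPM. The 8 genes were Gpr27, Nt5e, Cd55, Ifrd1, Mmp8, Tinagl1, Map4k4 and 4933408B17Rik. With called doublets removed the count of 8 was 12, and with cells of other markers removed as well it was 13. With S100a8 and S100a9 at 5% or more of UMIs in all 3 stages it was 18.

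Gpr27, an orphan G protein-coupled receptor, was at 45.1 CPM on the immature side, 99.9 in members and 4.93 on the mature side of the wild-type library, and at 51.6, 134 and 53.4 CPM in the SCD library, with a UMI in 49 of 99 and 527 of 900 members. Nt5e, the ectoenzyme CD73 that makes adenosine, was at 32.3, 67.4 and 4.68 CPM in the wild-type and 29.3, 74.9 and 15.1 CPM in the SCD library. Cd55, which protects cells from complement, was at 55.0, 107 and 4.44 CPM and at 54.1, 85.2 and 18.7 CPM. These 3 genes were lowest on the mature side of the wild-type library, and for Gpr27 the SCD mature side was close to the immature side. Tinagl1, a secreted matrix protein, was at 78.2 and 82.7 CPM in members, and Map4k4, a kinase of stress signalling, at 154 and 164 CPM. Ifrd1, a transcriptional coregulator of neutrophil differentiation, was at 81.8 and 91.8 CPM. Along the finer steps Nt5e was highest in members at 2 to under 3% in the wild-type (82.4 CPM) and at 3 to under 4% in the SCD library (95.9 CPM).

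**Figure D3:**
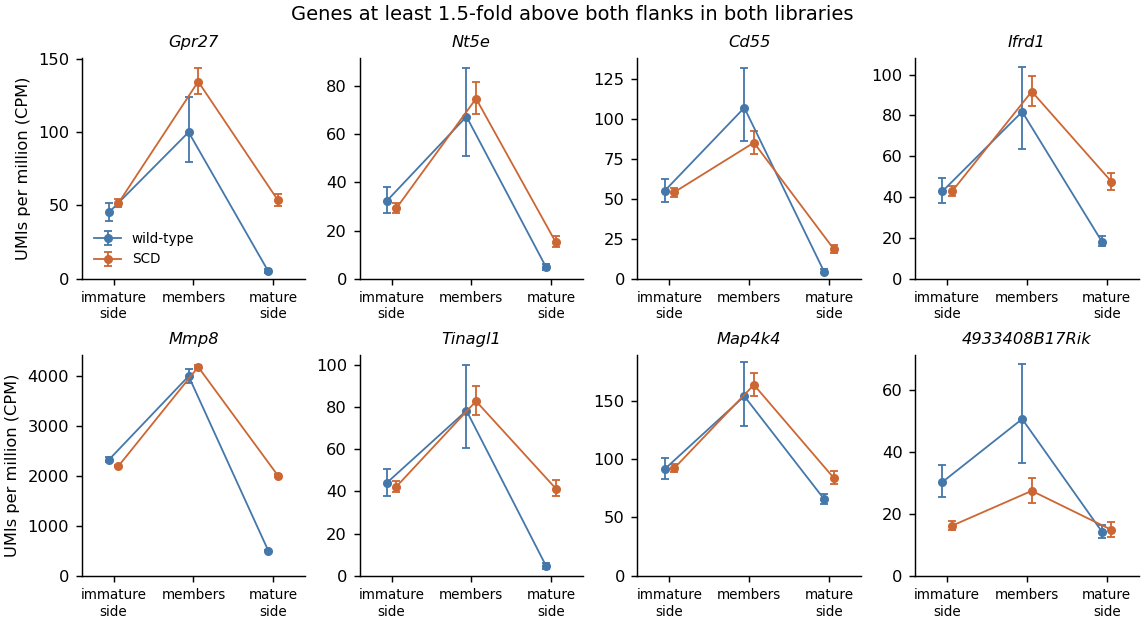
Level in CPM (y axis) on the immature side, in members and on the mature side (x axis) for the 8 genes at least 1.5-fold above both flanks in both libraries, wild-type in blue and SCD in orange; bars are 95% counting intervals. Every gene is highest in members, and all 8 are higher on the SCD than on the wild-type mature side, with 4933408B17Rik nearly level at 14.8 and 14.2 CPM.

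The 12 genes furthest above both flanks in the wild-type were Prok2, Cstdc5, Retnlg, Car2, Car1, Hopx, Ly6d, Upp1, Ifit1bl2, Gpr27, Tbl1x and Nt5e. Prok2, the chemokine-like prokineticin 2, was at 11.0, 56.6 and 4.85 CPM from the immature to the mature side of the wild-type, and at 16.6, 87.2 and 77.0 CPM in the SCD library. Hopx, a homeodomain-only cofactor, was at 84.2 and 83.5 CPM in members, and Upp1, uridine phosphorylase, at 78.2 and 77.8 CPM. Both were above each flank in both libraries, but the SCD mature side was close, at 74.6 and 76.0 CPM. For 4 of the 12 a single wild-type cell held most of the UMIs: 96.0% for Cstdc5, 92.8% for Ly6d, 88.0% for Car1 and 83.7% for Car2. Those 4 values describe that cell more than the stage.

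Other genes were between the flanks. Of 1190 genes at least 2-fold apart between the flanks of the wild-type library, 1103 had an intermediate level in wild-type members, and 1034 of these were intermediate in the same order in the SCD library. The 10 steepest towards lower levels on the mature side were Chil3, Orm1, Serpinb1a, Inhba, Zmpste24, Itgb2l, Mgst2, Olfml2b, Ly6g and Lcn2. Serpinb1a, an inhibitor of neutrophil serine proteases, was at 664, 270 and 14.9 CPM from the immature to the mature side of the wild-type and at 652, 291 and 66.2 CPM in the SCD library. Orm1, the acute phase protein orosomucoid, was at 232, 8.42 and 0.485 CPM and at 190, 11.2 and 2.34 CPM, so it was nearly gone in members. Itgb2l, a beta integrin chain of neutrophils, was still near its immature level, at 296 and 241 CPM in the wild-type and at 210 and 188 CPM in the SCD library.

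The 10 steepest in the other direction were Il1b, Pla2g7, Fgl2, Ifitm1, Ccl6, Dusp1, Srgn, H2-Q10, Wfdc17 and Clec4d. Over all members the 10 were above the immature side and at least 4-fold below the mature side in both libraries. Without the doublets and cells with other markers, Il1b, Fgl2 and Wfdc17 were at 28.7, 28.7 and 23.0 CPM in wild-type members, below the 48.6, 29.3 and 62.8 CPM of all cells on the immature side. Il1b was at 74.6 and 48.5 CPM in wild-type and SCD members, against 48.6 and 14.7 CPM on the immature side, and was seen in 3.03% (0.629 to 8.60) and 1.78% (1.02 to 2.88) of thinned members against 1.34% and 0.345% of the background DCs. Srgn, the granule proteoglycan serglycin, was at 539 and 285 CPM in members and 4330 and 2037 CPM on the mature side. Ccl6, a chemokine, was at 514 and 401 CPM in members, against 101 and 59.0 CPM on the immature and 3699 and 2542 CPM on the mature side. Ifitm1 was at 77.0 and 97.4 CPM in members and 1209 and 1197 CPM on the mature side, and Ifitm2 and Ifitm3 at 728 and 774 and at 1414 and 1547 CPM in members.

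Receptors of the mature cell were unevenly advanced. Cxcr2, the chemokine receptor for egress from the marrow, was at 327, 768 and 1974 CPM from the immature to the mature side of the wild-type and at 254, 619 and 1285 CPM in the SCD library. Csf3r, the receptor for granulocyte colony-stimulating factor, was at 190, 353 and 2633 CPM and at 139, 318 and 1384 CPM. Cxcr4, the marrow retention receptor, was at 244, 331 and 655 CPM in the wild-type, and in the SCD library at 204, 315 and 271 CPM, with members above the mature side. Fpr1, a formyl peptide receptor, was at 227 and 213 CPM in members, against 84.8 and 90.2 CPM on the immature side. Ltb4r1, the leukotriene B4 receptor, went the other way, from 337 and 339 CPM on the immature side to 154 and 176 CPM in members. Of the 20 listed receptors 18 were expressed in members, with a median log2 ratio between the libraries of -0.09, where that of all expressed genes was -0.11.

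Of the transcription factors, Cebpe, which drives specific granule genes, was at 461, 140 and 32.5 CPM from the immature to the mature side of the wild-type and at 443, 143 and 41.0 CPM in the SCD library. Cebpb was at 93.5, 190 and 623 CPM and at 64.0, 127 and 322 CPM, and Mxd1, a MYC antagonist, at 434, 798 and 1229 CPM and at 376, 656 and 813 CPM. Spi1, which encodes PU.1, was at 579 and 603 CPM in members, and Gfi1 was low throughout, with 2 and 21 UMIs. Genes of the NADPH oxidase were all expressed. Cybb, its catalytic chain gp91phox, was at 2681, 1466 and 269 CPM in the wild-type and at 2547, 1410 and 393 CPM in the SCD library. Ncf1 was at 1060 and 1007 CPM in members and Cyba at 1377 and 1242 CPM.

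Between the libraries, few genes of the members differed by 2-fold. Of 2200 expressed genes (at least 50 CPM and 20 UMIs in either library), 4 (0.182%) were at least 2-fold higher and 59 (2.68%) at least 2-fold lower in SCD members. The median log2 ratio over all expressed genes was -0.11, and with scaling by the median of ratios it was 0.12, which moved the counts to 8 higher and 39 lower. For 47 of the 59 lower genes, 5 wild-type members held 50% or more of the UMIs, and the median share in 5 cells was 69.4%, against 25% over 2137 genes within 2-fold. With called doublets removed the counts were 28 higher and 14 lower, and without the cells with other markers as well 19 and 14. Of the 59 lower genes, 13 were still expressed by the rule after that removal, and 7 of these were still 2-fold lower.

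The 12 genes lowest in SCD members were Ccl5, Trim12a, Tbc1d4, Ly6d, Bcl2a1b, Apol7c, H2-Eb2, Fos, Adam23, Asb2, Tmem176a and H2-Aa, and most had few wild-type cells behind them. H2-Aa, an MHC class II chain of antigen-presenting cells, was at 1060 CPM in wild-type and 197 CPM in SCD members. It was at 55.5 and 20.5 CPM without the doublets and cells with other markers. H2-Aa is itself one of the markers that chose those cells, so its fall follows from that choice. Without called doublets alone its log2 ratio was 1.47, the opposite direction. Bcl2a1b was at 106 and 8.73 CPM, and its 88 wild-type UMIs lay in 12 cells and were all gone without those cells (Bcl2a1 genes are near-identical copies, so the split of reads is uncertain). Ly6d was at 283 and 30.2 CPM, and at 3.83 and 3.77 CPM without them. As one of the markers that chose those cells, Ly6d falls by that choice. Ccl5 was at 182 and 7.70 CPM, Apol7c at 56.6 and 2.66 CPM and Tbc1d4 at 111 and 8.88 CPM, and they kept 11.5, 1.92 and 3.83 CPM in the wild-type without those cells.

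Only Trim12a and Fos of these 12 differed by as much with and without the cells. Trim12a, a TRIM family gene (ENSMUSG00000066258), had 58 wild-type UMIs in 40 of 99 members and 20 SCD UMIs in 19 of 900, at 69.8 CPM (53.0 to 90.2) and 2.96 CPM (1.81 to 4.57), a log2 ratio of -3.23 that was -3.27 without the cells. Fos, an immediate early transcription factor, had a UMI in 32 of 99 wild-type and 21 of 900 SCD members, at 65.0 CPM (48.8 to 84.8) and 4.00 CPM (2.63 to 5.81), with log2 ratios of -2.96 and -3.08. Outside the 12, and singled out after its value was seen, Thbs1, thrombospondin 1, was at 403 CPM (361 to 449) and 130 CPM (122 to 139), with log2 ratios of -1.59 and -1.70. Lmnb1, lamin B1, was at 126 and 54.0 CPM (-1.15 and -1.35), and Dusp1, a phosphatase that is induced with Fos, at 65.0 and 26.5 CPM (-1.15 and -1.07).

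Trim12a lies at chr7:104299894-104315466 (GRCm38), 0.480 Mb from the beta globin genes Hbb-bs and Hbb-bt, whose locus is targeted in these mice. Of 11 expressed genes within 2 Mb of them, Trim30b, 0.536 Mb away, was the other with a large difference, at 110 CPM in wild-type and 52.7 CPM in SCD members, a log2 ratio of -0.99, while the other 9 lay between -0.23 and 0.32. The neighbours Trim12c (147 and 139 CPM) and Trim30a (79.4 and 74.9 CPM) had log2 ratios of -0.07 and -0.08. TRIM genes of this cluster are similar in sequence, so reads may be shared among them. The part of the mixed strain background in these differences was not tested.

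**Figure D4:**
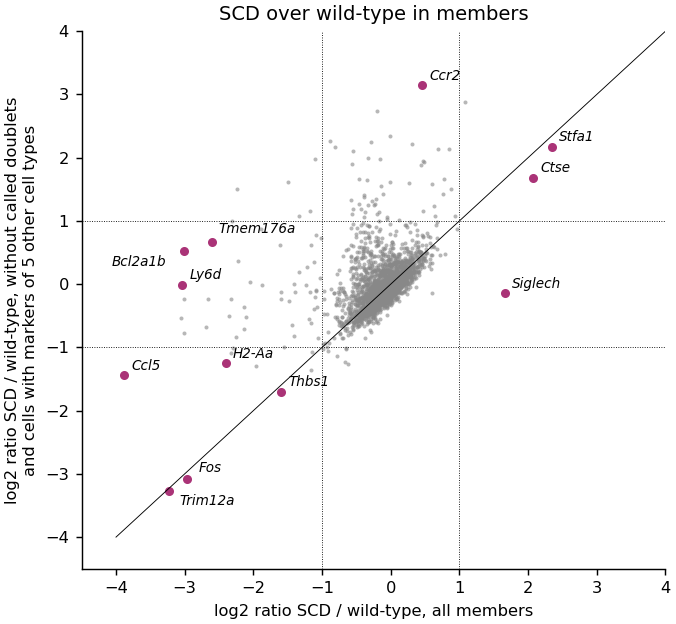
Log2 ratio of SCD over wild-type CPM for each of the expressed genes over all members (x axis) and without called doublets and cells with markers of 5 other cell types (y axis); dotted lines mark 2-fold and the solid line equality. Trim12a, Fos, Thbs1, Ctse and Stfa1 are past 2-fold on both axes (Stfa1 was at -0.18 with the gate at 0.5 to under 7%, not drawn), while Bcl2a1b is at 0.52, Ly6d at -0.01 and Siglech at -0.14 on the y axis. Ly6d and Siglech are among the markers that chose the removed cells, so their y values follow from that choice.

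The 12 highest genes in SCD members were Stfa1, Ctse, Siglech, Lgals1, Gm8797, Hist1h1e, Pycard, S100a10, Tcf4, Stfa3, Ethe1 and Ctsc, and 4 of them passed 2-fold. Ctse, the aspartic protease cathepsin E, was at 32.5 CPM (21.4 to 47.3) in wild-type and 153 CPM (144 to 162) in SCD members, with a UMI in 24 of 99 and 592 of 900 cells and a log2 ratio of 2.07 (1.69 without the cells with other markers). In the background DCs Ctse was also higher in the SCD library, at 87.2 against 4.5 CPM, and the part of free RNA in the members' difference was not tested. Stfa1, a stefin A cysteine protease inhibitor, had 5 UMIs in 1 wild-type member and 345 UMIs in 39 SCD members, at 6.02 and 51.1 CPM, a ratio of 8.48 (3.6 to 26.3). With the gate widened to 0.5 to under 7% its log2 ratio was -0.18, so the direction turned. Stefin genes are near-identical copies, so the split of reads among them is uncertain. Siglech and Tcf4 are genes of plasmacytoid DCs, and Siglech was at 13.2 and 52.7 CPM but at 1.92 and 1.26 CPM without the cells with other markers. Both are among the markers that chose those cells, so the fall of Siglech follows from that choice. Lgals1, galectin 1, had 73.1% of its 52 wild-type UMIs in 1 cell, and its log2 ratio of 1.08 was 2.88 without those cells. Pycard, the inflammasome adaptor ASC, was at 44.5 and 86.3 CPM, a ratio of 1.94 (1.39 to 2.78), and at 21.1 and 69.4 CPM (log2 ratio 1.51) without the doublets and cells with other markers. Without the doublets and cells with other markers, Stfa1 and Ctse were again past 2-fold higher, Lgals1 was under the 50 CPM minimum in both libraries, and the first of the 19 was Ccr2, a chemokine receptor of monocytes, singled out after its value was seen. Ccr2 had 1 UMI in the 77 wild-type and 312 UMIs in the 817 SCD members left, and over all members 6 of 99 and 94 of 900 cells had a UMI. Monocyte markers were not among the genes used to remove cells, and their part in this value was not tested.

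Of 22 gene lists, 21 had at least 3 expressed genes and the chemokine list had 1, and the BCL2 family was the only list with a median past 2-fold, at -2.32 over 3 expressed genes (Mcl1, Bcl2a1b and Bcl2a1d). Mcl1, the survival factor of neutrophils, was at 468 and 348 CPM. Without called doublets no list median passed 2-fold. The specific granule list had a median log2 ratio of 0.06 over 15 genes and the gelatinase list -0.24 over 6, with 0 genes past 2-fold in either. Late neutrophil genes had a median of -0.29 (-0.45 to -0.08 over the alternatives), with 15 of 19 lower and 1 past 2-fold (Lmnb1), where 1527 of all 2302 expressed genes were lower. The 9 expressed immediate early genes had a median of -0.61 (-0.33 with median-of-ratios scaling), with 3 of them past 2-fold lower (Fos, Junb and Dusp1), against 2.68% of all expressed genes, and Klf2 level at 271 and 269 CPM. Junb was at 148 and 47.1 CPM, and at 82.4 and 39.0 CPM (log2 ratio -0.99, no longer past 2-fold) without the doublets and cells with other markers, and Ier2 at 184 and 119 CPM. The 6 heat shock genes had a median of -0.41 with 0 past 2-fold, and without called doublets the median was 0.20. On the mature side, away from the members, Fos was at 511 and 34.9 CPM and Dusp1 at 1033 and 145 CPM, also lower in the SCD library. Without the doublets and cells with other markers the heat shock genes did not share a direction: Hspa8 was at a log2 ratio of -0.16 and Hsp90ab1 at 0.68.

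The study asked how chronic hemolysis affects myeloid cells, so genes of heme and iron handling were read as well. Of 13 listed genes, 4 were expressed in members and 0 passed 2-fold, which at 0.182% higher and 2.68% lower over all expressed genes says nothing particular about so few. Hmox1, heme oxygenase 1, was at 63.8 and 35.4 CPM, and its log2 ratio of -0.77 was -0.13 without the cells with other markers. Slc40a1, the iron exporter ferroportin, was at 172 and 151 CPM, and the ferritin genes Fth1 and Ftl1 at 2456 and 2316 and at 2323 and 2355 CPM. Of 15 NRF2 targets, 8 were expressed, with a median log2 ratio of 0.06. Gclm, for glutathione synthesis, was at 55.4 and 74.9 CPM, and Prdx5, a peroxiredoxin, at 1834 and 2327 CPM. Slc7a11, the cystine transporter, did not reach the expression minimum and was at 49.3 and 21.8 CPM. Of 26 interferon-stimulated genes 6 were expressed, with a median of 0.32 that was 0.06 to 0.55 over the alternatives, for example Ifi27l2a at 366 and 454 CPM and Slfn4 at 203 and 259 CPM. The 6 were at higher values in SCD members, where 775 of all 2302 expressed genes were, but Bst2 was at -0.14 without the doublets and cells with other markers. Listed genes under the expression minimum also had values in the other direction, such as Usp18 at -0.80 and Gbp2 at -0.96. Genes of glycolysis had a median of 0.11 over 11 and of membrane scaffold and motility 0.04 over 14, close to 0.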

How the data were processed

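Spleen suspensions of 1 wild-type and 1 SCD mouse were sequenced as single cells. The authors deposited a matrix of UMI counts per gene and cell for each library, made with Cell Ranger 4.0.0 on GRCm38.p6 per the submitters' processing notes. Cells with 500 to 5000 genes, under 15% mitochondrial and under 30% ribosomal UMIs were kept. Groups came from the labels. UMIs were summed over members per library and scaled to CPM, and log2 ratios used a pseudocount of 5 CPM, which understates changes of low genes. Shares have exact Clopper-Pearson and ratios exact binomial 95% intervals. Doublets were called per library with Scrublet (scanpy 1.11.5) and kept in the reported values. Thinning drew 1000 UMIs per cell. The script for the fold changes between libraries was tested on simulated counts with known changes before it was run on the deposited counts. No test across samples was possible with 1 per group.

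Members and gene lists were chosen with earlier results of these data known. Named genes were the 12 highest and 12 lowest between libraries, the 12 furthest above both flanks, and the 10 steepest in each direction between the flanks, leaving out mitochondrial, ribosomal, immunoglobulin, T cell receptor, globin, sex-linked and gate genes. Marker, gate and list genes that the text describes were named as well. Promoters came from RefSeq windows and gene positions from the GENCODE annotation of GRCm38, which held 26013 of 26124 identifiers. Alternatives covered gates, filters, scaling, weights, pseudocount and expression minimum. The count of genes highest between the flanks was not tried with median-of-ratios scaling, equal weights over steps of the gate or another pseudocount. Results on a few listed genes are not reported here.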

Additional observations from a re-analysis of the deposited data

Results flagged for a closer look

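For 4 of the genes named as furthest above both flanks in the wild-type library, the difference between members and the mature side pointed one way in the wild-type and the other way in the SCD library, and the difference was not tested. Retnlg had a log2 ratio of members over the mature side of 1.81 in the wild-type and -0.22 in the SCD library. Its level in members was nearly equal in the libraries, and its level on the mature side was 8736 and 35594 CPM. The mature sides also differed in their median share of Camp, Ngp and Ltf, which was 0% in the wild-type and 0.152% in the SCD library. For Car2 the log2 ratios were 1.68 and -0.84, for Car1 1.52 and -0.50, and for Ly6d 1.36 and -0.29. For these 3 genes a single wild-type member held 83.7%, 88.0% and 92.8% of the UMIs. Without the called doublets and cells with other markers their wild-type log2 ratios were -0.26, -0.63 and -0.30, so that both libraries then pointed the same way. All of these genes are among the markers that chose the removed cells, so their fall follows from that choice. With called doublets alone removed, Car2 was at 1.95 and -0.83 and Car1 at 1.95 and -0.48, still opposite. Ly6d was then at -0.88 and -0.50. With each cell weighted equally the SCD ratio of Retnlg was 0.16, against 2.09 in the wild-type.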

How the results depend on the processing

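Each library is 1 mouse, so genotype, animal and library cannot be told apart, and the wild-type members are 99 cells. No paired analysis was possible because only 1 library stands for each genotype, and no library could be left out. Over 18 alternatives, members were a larger share in SCD under each of the gates and cell filters tried. Over gated neutrophils the ratio was 3.96 with at least 1000 genes. Genes at least 2-fold higher numbered 7 after thinning before gating, 28 without called doublets, 16 with the gate at 1.5 to under 4%, 8 with median-of-ratios scaling, 10 with gate genes left out of the total, 10 and 2 with minimums of 20 and 100 CPM, and 19 without doublets and cells with other markers, the alternative chosen after seeing the data. Genes at least 2-fold lower numbered 39 after thinning, 14 without called doublets, 36 with the gate at 0.5 to under 7%, 39 with median-of-ratios scaling, 38 with each cell weighted equally, 126 and 23 with minimums of 20 and 100 CPM, and 14 without doublets and cells with other markers. Genes highest between the flanks in both libraries numbered 18 with S100a8 and S100a9 at 5% or more, 3 with a minimum of 100 CPM and 13 without doublets and cells with other markers. Lists with a median past 2-fold numbered 0 without called doublets, with gate genes left out of the total, with each cell weighted equally, with a minimum of 20 CPM and without doublets and cells with other markers. Without called doublets the log2 ratios of Bcl2a1b, H2-Aa, Ly6d, Tbc1d4 and Tmem176a changed sign, to 1.09, 1.47, 0.68, 0.062 and 1.59. Without cells with other markers as well, those of Bcl2a1b, Tmem176a and Siglech were 0.52, 0.66 and -0.14, where Siglech is one of the markers that chose those cells. Ly6d was at 2.89 with the gate at 1.5 to under 4%, and Stfa1 at -0.18 with the gate at 0.5 to under 7%. Apart from the alternatives that remove cells, where fewer cells enter, the cause was not tested. The median log2 ratio of all genes was -0.11, and 0.12 with median-of-ratios scaling. Of 594 log2 ratios of named genes and markers, 489 stayed within the counting interval of the reported value. The sign changed in 25, of which 10 are those given above and 15 had a reported value under 2-fold (Ltf, Retnlg, Mmp8 and Ctsc).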
